A study of Mus musculus with 2 samples.

Results

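The Fmod Ccn5 fibroblasts of the mouse aorta were examined in 2 droplet-based single-cell RNA sequencing libraries, 1 from MGP knock-in mice and 1 from wild-type mice. They comprised 3132 of 5860 fibroblasts and of 10116 cells: 1640 of 3009 fibroblasts in the knock-in library and 1492 of 2851 fibroblasts in the wild-type library. Fibroblasts were cells with at least 5 unique molecular identifiers (UMIs, 1 per captured RNA molecule) of Dcn, Lum and Pdgfra together, and more of these than of the smooth muscle genes Acta2, Tagln and Myh11. Members were chosen by measured UMIs of the same cells: a fibroblast belonged to the group when Pex5l, Fmod, Ccn5, Vegfd and Rbp4 gave at least 3 UMIs together, more than Entpd2, Cpz, Gdf10, Bace2 and Tspan11 gave, and more than Tmem100, Opcml, Ly6c1, Cd55 and Wnt2 gave. The fibroblasts led by the last 2 gene sets served for comparison and are called Entpd2 fibroblasts and Tmem100 fibroblasts. The knock-in mice (MGP-KI) carried a mutated matrix Gla protein (MGP), and all mice of both genotypes were 1 month old and of both sexes. Per the labels' protocols, the adventitia was dissected away, the remaining aorta was digested with Liberase and DNase, and dead cells stained by DAPI were sorted out before 10x Genomics library construction. The batch label was 1 for each library. No source used here gives the mutated residue, how many mice went into a library or the hour at which they were killed. With 1 library per genotype there was no replicate check, no test between genotypes was made, and genotype and library cannot be told apart. All intervals are 95% and cover counting error only.

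Fibroblasts of the arterial wall build and remodel the extracellular matrix around the smooth muscle layers. Fibromodulin (Fmod) is a small leucine-rich proteoglycan that binds collagen fibrils, Ccn5 is a matricellular protein that restrains smooth muscle growth, and Vegfd is a ligand of lymphatic and vascular endothelial receptors. Rbp4 carries retinol, and Pex5l is a relative of the peroxisomal import receptor known as a partner of HCN channels in neurons. MGP, the protein mutated in the knock-in mice, is a secreted inhibitor of calcification that also binds the growth factors known as bone morphogenetic proteins (BMPs).

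The libraries stood apart in depth and make-up before any gene was compared. The median was 11820 UMIs per cell over 6419 knock-in cells and 20480 UMIs over 3697 wild-type cells, and among the Fmod Ccn5 fibroblasts it was 11401.5 against 22470.5. Cells passing smooth muscle markers numbered 3016 in the knock-in library and 420 in the wild-type library. Among the Fmod Ccn5 fibroblasts, 37.3% of knock-in and 32.0% of wild-type cells carried UMIs of Xist and none of the Y-linked genes read, and 34.9% of knock-in and 59.0% of wild-type cells the reverse. Both libraries shared 4 of the barcodes kept. RNA free in solution could account for at most 1.30% of the UMIs of knock-in and 0.74% of those of wild-type members. Because depth and sex differed with genotype, ratios were also taken in cells of 8000 to 20000 UMIs and in female and male cells apart.

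The group took 54.5% of knock-in fibroblasts (52.7 to 56.3%, exact binomial interval) and 52.3% of wild-type fibroblasts (50.5 to 54.2%), a difference of 2.17 percentage points with an interval of -0.41 to 4.75. After thinning of every fibroblast to 5000 UMIs the shares were 53.5% in the knock-in and 51.8% in the wild-type library, so the genotypes did not separate beyond counting error in either form. In cells of 8000 to 20000 UMIs the shares lay farther apart, at 59.4% in the knock-in and 47.3% in the wild-type library. Of all cells the group made up 25.5% in the knock-in and 40.4% in the wild-type library, a denominator that holds the unequal smooth muscle counts. Entpd2 fibroblasts numbered 880 in the knock-in and 838 in the wild-type library, and Tmem100 fibroblasts 326 and 453 in the same order.

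The label was checked against its markers, which the rule itself used, so their values are a description. Ccn5 stood at 1251 CPM (the UMIs of a gene summed over the group, scaled to a common library total per group) in knock-in and 1333 CPM in wild-type members, against 91.2 and 123 CPM in knock-in and wild-type Entpd2 fibroblasts and 29.3 and 33.7 CPM in Tmem100 fibroblasts. Fmod stood at 526 CPM in knock-in and 383 CPM in wild-type members, and in Entpd2 fibroblasts at 206 CPM in knock-in and 76.3 CPM in wild-type cells. Pex5l gave 229 CPM in knock-in and 183 CPM in wild-type members, and Vegfd 387 and 352 CPM. All 4 label genes were thus highest in the group in both libraries, and Fmod was the one least set apart from Entpd2 fibroblasts, above all in the knock-in library. Rbp4, which is not in the label, carried 46.9% of the UMIs of the 5 rule genes in knock-in and 51.2% in wild-type members, and 82 knock-in and 30 wild-type members qualified on Rbp4 alone. At 5000 UMIs per cell, Ccn5 was seen in 79.9% of knock-in and 82.0% of wild-type members. It was also seen in 39.6% of knock-in and 56.5% of wild-type smooth muscle cells. In Entpd2 fibroblasts the shares were 21.9% and 24.4% in the same order. Macrophages, with median depths of 11815 and 15004 UMIs before thinning, gave 2.90% and 5.20%.

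**Figure D1:**
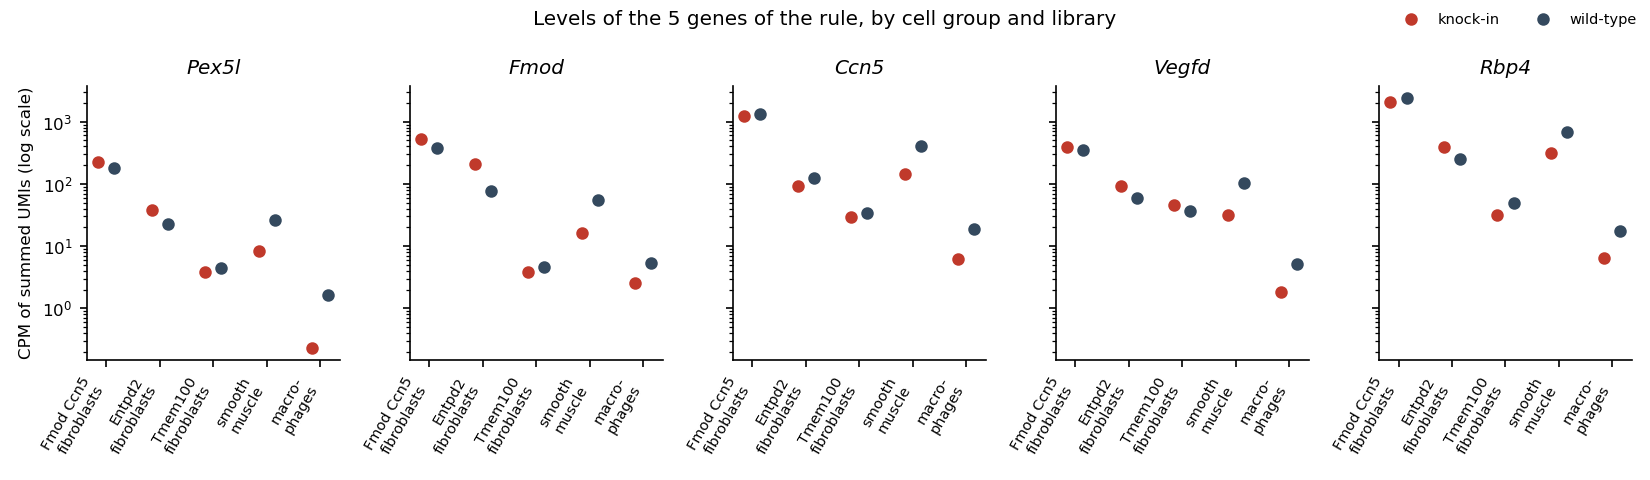
Levels of the 5 genes of the rule in CPM of summed UMIs (vertical axis, log scale) by cell group, with knock-in in red and wild-type in dark blue and 1 point per library. Each gene is highest in Fmod Ccn5 fibroblasts in both libraries; Ccn5 reaches 1251 and 1333 CPM there.

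The border of the group was graded rather than sharp. Genes of the Entpd2 set were present in 96.9% of knock-in and 99.3% of wild-type members, and the rule genes made up a median of 80.9% and 83.3% of the UMIs of all 3 sets. Just inside the limit, 9 knock-in and 3 wild-type members had exactly 3 UMIs of the rule genes. Just outside it, 14 knock-in and 3 wild-type fibroblasts had 2. A further 22 knock-in and 24 wild-type fibroblasts with 3 or more UMIs tied with the Entpd2 set and were not members.

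Of 6410 genes, 96 (1.5%) were at least 2-fold higher in the group than in both other fibroblast groups in both libraries. Another 77 (1.20%) were at least 2-fold lower. Rule genes were not set aside in these counts, and all 4 label genes were at least 2-fold higher. The rule was drawn from these same cells, so these genes describe the group and carry no test. Elastin (Eln), the core of the elastic lamellae, was the most abundant of the 20 highest genes outside the rule. It stood at 8711 CPM in knock-in and 16046 CPM in wild-type members, at 2324 and 4575 CPM in Entpd2 fibroblasts, and at 1180 and 3826 CPM in Tmem100 fibroblasts. Smooth muscle cells reached 8696 CPM in the knock-in and 19741 CPM in the wild-type library, so the knock-in values of these fibroblasts and the muscle cells nearly met and the wild-type value was lower in the fibroblasts.

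Several of the other genes that set the group apart encode receptors and adhesion proteins of the cell surface. Erbb4, a neuregulin receptor kinase, gave 50.6 CPM in knock-in and 74.7 CPM in wild-type members, against 1.03 and 0.978 CPM in Entpd2 fibroblasts and 210 and 567 CPM in smooth muscle cells. The contactin Cntn6, the cadherin Cdh18, the Eph receptor Ephb1 and the LDL-receptor relative Lrp1b were also among the 20, as were the collectin Colec11 and the metalloproteinase Adamts17. Lrp1b stood at 119 CPM in knock-in and 141 CPM in wild-type members, against 28.0 and 20.9 CPM in Entpd2 fibroblasts. Tenomodulin (Tnmd), a membrane protein of tendon cells, gave 90.3 CPM in knock-in and 75.5 CPM in wild-type members, against 22.1 and 13.9 CPM in Entpd2 fibroblasts. The tendon transcription factor genes Scx and Mkx stayed low, with 2.28 and 1.63 CPM in knock-in and 1.51 and 1.57 CPM in wild-type members. The Wnt antagonist Frzb completed the set with 27.8 CPM in knock-in and 77.4 CPM in wild-type members. Car3 was also among the 20, but 561 of its 563 UMIs in knock-in and 914 of its 920 UMIs in wild-type members came from 2 cells per library that passed adipocyte markers.

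Of 9 listed progenitor-like fibroblast genes, Ly6a was the single one among the 10 lowest genes outside the rule. Ly6a, the surface protein Sca-1, gave 215 CPM in knock-in and 158 CPM in wild-type members, against 836 and 935 CPM in Entpd2 fibroblasts and 2117 and 2084 CPM in Tmem100 fibroblasts. Igfbp6, an insulin-like growth factor binding protein, gave 248 CPM in knock-in and 234 CPM in wild-type members, against 909 and 978 CPM in Entpd2 fibroblasts. Plac8, Cadm3, Vit, Ifi204, Ccl11, Gap43, Stmn4 and the hyaluronan synthase gene Has2 were the others. Gap43 reached 121 and 125 CPM in Tmem100 fibroblasts and only 1.36 CPM in knock-in and 2.91 CPM in wild-type members.

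**Figure D2:**
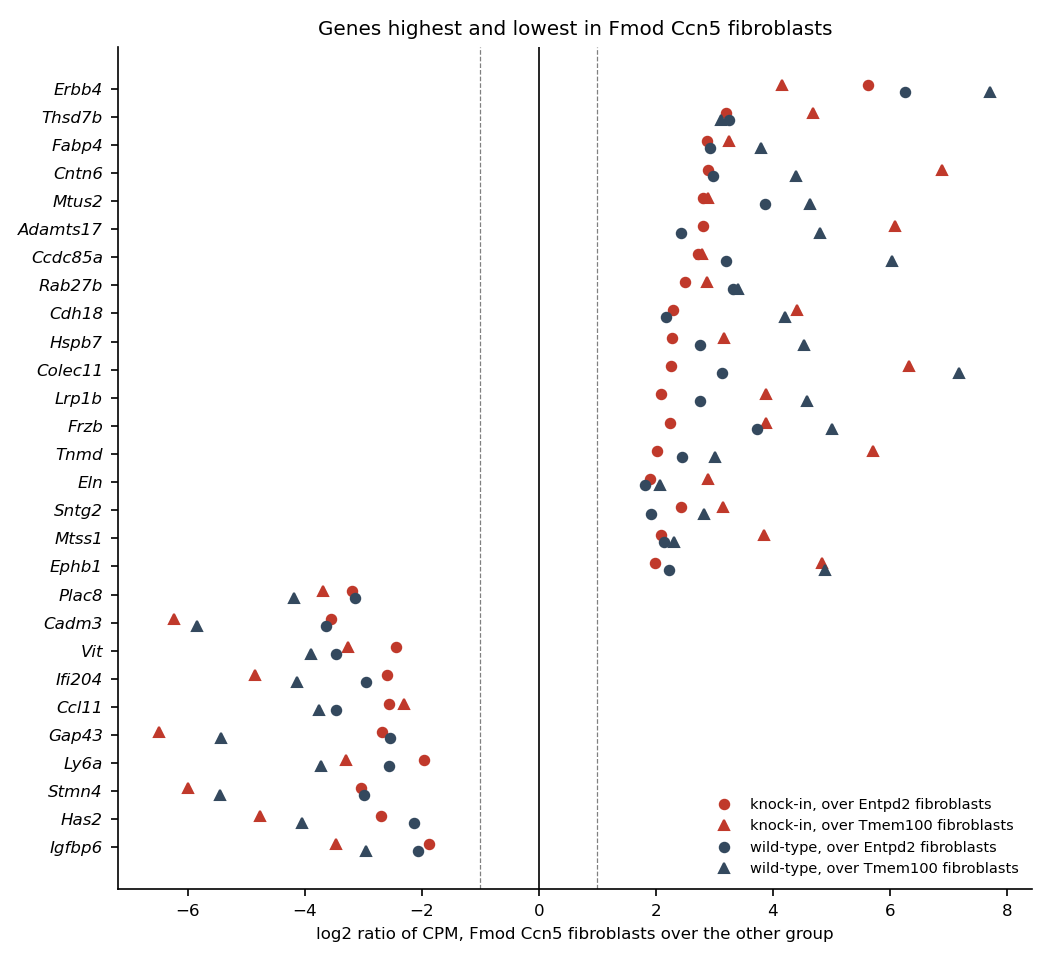
The log2 ratio of CPM of Fmod Ccn5 fibroblasts over Entpd2 (circles) or Tmem100 fibroblasts (triangles) in the knock-in (red) and wild-type (dark blue) library, for higher and lower genes of the group; Car3 is left out and dashed lines mark 2-fold. The 4 ratios of each gene lie on 1 side of 0, from Erbb4 at the top to Igfbp6 at the bottom.

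Between genotypes, the group was compared over 6412 genes with at least 50 UMIs over both libraries and at least 20 CPM in 1 or both. Of these, 98 (1.53%) were at least 2-fold higher and 105 (1.64%) at least 2-fold lower in knock-in members, and the median gene stood at -0.09 on the log2 scale of knock-in over wild-type CPM. Gene lists were read over all genes with at least 10 UMIs, of which 13.0% were at least 1.5-fold higher and 11.6% at least 1.5-fold lower in knock-in members, with a median of -0.06. Rescaling to the median gene turned the 2-fold counts into 125 higher and 81 lower.

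Several of the largest ratios belonged to circadian clock genes. In this feedback loop the activators BMAL1 (gene symbol Arntl), CLOCK and NPAS2 bind E-boxes and drive their own repressors, the Per, Cry and Nr1d genes, together with output factors of the PAR bZIP family, Dbp, Tef and Hlf, which bind D-boxes. The 250 bases upstream of the start of 3 of these genes are shown because their levels differed between the libraries and their letters hold the 2 motifs. The sequences are from RefSeq on GRCm38.p6, with the E-box CACGTG or the D-box TTATGNAA in capitals, searched on both strands.
Ciart (chr3:95882229-95882478, minus strand): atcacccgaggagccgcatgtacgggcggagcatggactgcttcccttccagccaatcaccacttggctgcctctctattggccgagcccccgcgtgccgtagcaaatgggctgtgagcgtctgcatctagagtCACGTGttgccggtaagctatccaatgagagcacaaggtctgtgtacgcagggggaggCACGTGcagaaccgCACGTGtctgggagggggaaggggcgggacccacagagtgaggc
Bhlhe41 (chr6:145865421-145865670, minus strand): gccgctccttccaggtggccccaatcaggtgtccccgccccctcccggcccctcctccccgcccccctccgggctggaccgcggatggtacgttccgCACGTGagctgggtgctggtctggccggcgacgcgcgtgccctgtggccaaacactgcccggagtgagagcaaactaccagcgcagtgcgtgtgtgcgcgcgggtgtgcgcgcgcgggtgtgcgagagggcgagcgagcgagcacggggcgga
Per3 (chr4:151044666-151044915, minus strand): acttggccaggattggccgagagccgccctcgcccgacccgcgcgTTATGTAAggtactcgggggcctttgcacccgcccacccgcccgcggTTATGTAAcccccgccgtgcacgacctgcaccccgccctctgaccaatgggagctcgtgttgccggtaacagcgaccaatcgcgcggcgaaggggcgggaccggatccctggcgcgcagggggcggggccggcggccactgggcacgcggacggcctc
Ciart, a repressor of the clock activators, holds 3 E-boxes, whose first bases lie 116, 58 and 44 bases before the start. Bhlhe41, a further E-box repressor, holds 1 at 153 bases, and Per3 holds 2 D-boxes, at 205 and 158 bases. Across all 32851 RefSeq windows of this length, 6.02% hold the E-box letters and 3.07% the D-box letters. Of the 13 listed repressor and output genes, 11 had an entry, 5 with an E-box and 2 with a D-box, while 4 of 5 activator-arm genes had an entry and 0 held either. The windows of Dbp, Hlf, Nr1d1 and Nr1d2 hold neither string, and a match in letters is a description, not evidence of binding.

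Clock repressor and output genes were higher in knock-in members: 10 of 13 were at least 1.5-fold higher and 0 at least 1.5-fold lower, with a list median of 1.74. Dbp gave 382 CPM in knock-in and 31.8 CPM in wild-type members, a log2 ratio of 3.58 (3.49 to 3.68). Ciart gave 11.2 and 1.01 CPM in knock-in and wild-type members, a ratio of 3.47 (2.94 to 4.04). Hlf stood at 130 CPM in knock-in and 29.3 CPM in wild-type members, Bhlhe41 at 69.4 and 16.6 CPM, and Per3 at 58.8 and 16.5 CPM, while Nr1d1, the nuclear receptor REV-ERB alpha, stood at 270 and 76.2 CPM. Cry1, Cry2 and Bhlhe40 were nearer to each other in the 2 libraries, with ratios of -0.08, 0.28 and 0.44. In the activator arm, 0 of 4 measured genes were higher and 4 lower, with a median of -2.27. Npas2 gave 6.88 CPM in knock-in and 102 CPM in wild-type members, a ratio of -3.89 (-4.15 to -3.63), and Arntl 2.98 and 33.6 CPM, a ratio of -3.49 (-3.91 to -3.10). Clock and Nfil3, a D-box repressor, differed less, with ratios of -1.05 and -0.85.

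Dbp and Npas2 kept their direction in each of these splits. The Dbp ratio was 4.17 in female and 3.25 in male members, and 3.16 in cells of 8000 to 20000 UMIs, and the Npas2 ratio was -4.37, -3.54 and -3.58. The other fibroblasts differed in the same way, with a Dbp ratio of 4.17 in Entpd2 and 4.58 in Tmem100 fibroblasts and an Arntl ratio of -4.28 and -3.47. The part of collection time, not given for either library, was not tested.

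Others among the 12 genes with the highest ratios have no single role. Inmt, an indolethylamine methyltransferase, gave 237 CPM in knock-in and 31.1 CPM in wild-type members, a ratio of 2.93 (2.84 to 3.03). The semaphorin Sema4a, the phosphodiesterase Pde4c and the phosphatase Ppm1n reached 27.7, 31.4 and 48.0 CPM in knock-in members, against 6.32, 7.48 and 12.6 CPM in wild-type members. Hist2h2aa1 and Wdr89 also had ratios above 2, but reads of genes with near-identical copies can be split in counting and their values are uncertain.

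**Figure D3:**
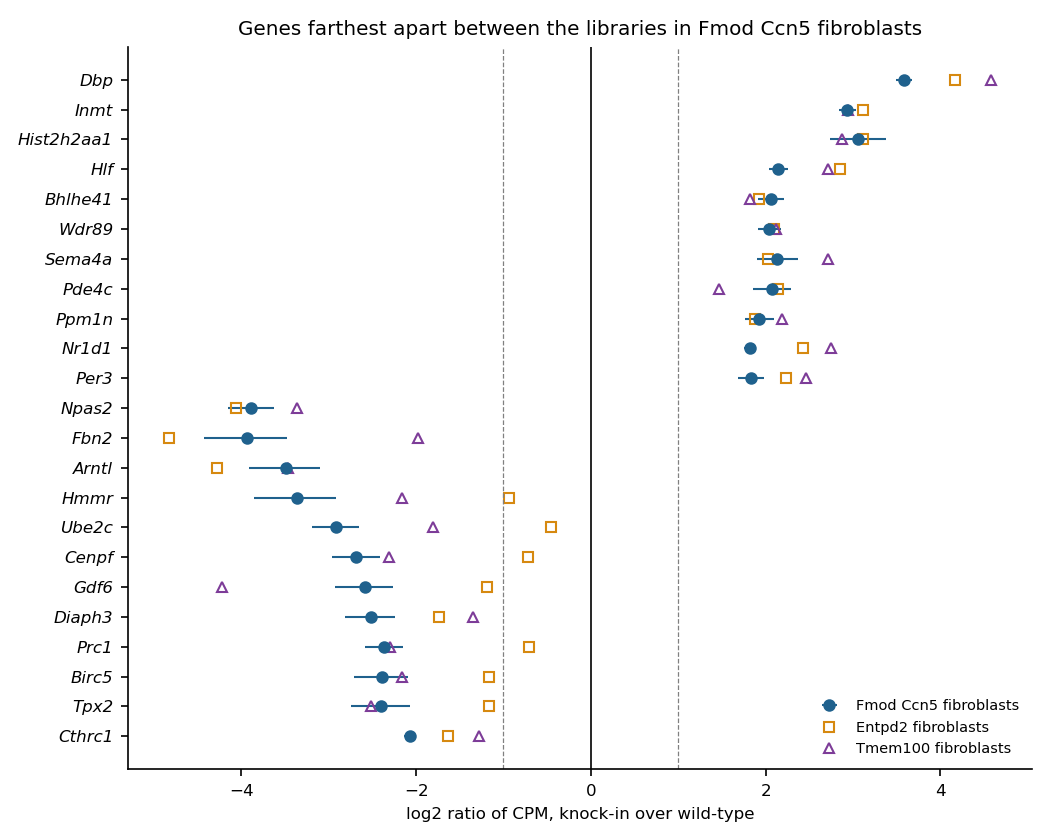
The log2 ratio of knock-in over wild-type CPM for the genes with the highest and lowest ratios in Fmod Ccn5 fibroblasts (filled circles with 95% counting intervals), with the same ratio in Entpd2 (squares) and Tmem100 fibroblasts (triangles); dashed lines mark 2-fold. Dbp at 3.58 and Npas2 at -3.89 have like ratios in all 3 groups, whereas cell cycle genes such as Ube2c, at -2.92, are nearer to 0 in Entpd2 fibroblasts.

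Elastic fibre genes were mostly at or below the wild-type level in knock-in members. Of 20 measured, 1 was at least 1.5-fold higher and 5 at least 1.5-fold lower, with a median of -0.26. Over all genes 13.0% were higher and 11.6% lower by that limit. Eln, at 8711 CPM in knock-in and 16046 CPM in wild-type members, had a ratio of -0.88 (-0.89 to -0.87). Lox, the enzyme that crosslinks elastin and collagen, gave 572 CPM in knock-in and 1014 CPM in wild-type members, a ratio of -0.82. The fibrillin gene Fbn1, the main microfibril scaffold, gave 637 and 984 CPM in knock-in and wild-type members, a ratio of -0.63. Fbn2, a fibrillin of development, gave 2.17 CPM in knock-in and 33.2 CPM in wild-type members, a ratio of -3.94 (-4.43 to -3.48). These genes lay lower in the knock-in library in female and in male cells alike: Eln at -0.71 and -0.93, Lox at -0.59 and -0.89, Fbn2 at -3.11 and -4.31. In cells of 8000 to 20000 UMIs the count was 0 higher and 2 lower of 20: Fbn2 stood at -4.05 and Eln at -0.64, while Lox at -0.53, Fbn1 at -0.38, Emilin2 at -0.31 and Ltbp4 at 0.58 lay inside the 1.5-fold limit. Fbln5, which tethers elastin to cells, stood at 1050 CPM in knock-in and 1532 CPM in wild-type members. Ltbp4, a latent TGF-beta binding protein needed for elastic fibre assembly, was the gene that was higher, at 495 and 301 CPM, and Loxl1 was level at 735 and 736 CPM.

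A list of genes of growing matrix and imprinted growth genes, widely active in young connective tissue, had 0 higher and 6 lower of 15, with a median of -0.47. Cthrc1, a secreted protein of remodelling matrix, gave 103 CPM in knock-in and 430 CPM in wild-type members, a ratio of -2.07 (-2.14 to -2.00). Tenascin C (Tnc) gave 28.9 and 118 CPM in knock-in and wild-type members, and periostin (Postn) 114 and 305 CPM. The imprinted genes H19 and Peg3 were the remaining pair with Fbn2, Peg3 at 49.0 CPM in knock-in and 86.0 CPM in wild-type members. Dlk1, with 10 knock-in and 28 wild-type UMIs, lay at the 1.5-fold limit and was not counted once 0.5 was added to each sum. The Tnc ratio of -2.02 in the group stood against 1.07 in Entpd2 and 1.95 in Tmem100 fibroblasts, where Tnc was at most 11 CPM, and against -1.0 in female and -2.31 in male members. In cells of 8000 to 20000 UMIs the Tnc ratio in the group was -0.99, and H19, on 30 knock-in and 125 wild-type UMIs in all members, turned to 0.15. These differences between groups and sexes were not tested.

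Most collagen genes lay within 1.5-fold between knock-in and wild-type members, as did most of all genes. Among fibrillar collagens 2 of 11 were at least 1.5-fold higher and 2 at least 1.5-fold lower, with a median of -0.30. Col1a1 gave 15684 CPM in knock-in and 20539 CPM in wild-type members, a ratio of -0.39, and Col3a1 16437 and 20894 CPM, a ratio of -0.35. Of the 2 higher, Col27a1 had a ratio of 0.63, which was 0.45 at matched depth (8000 to 20000 UMIs), and Col2a1 rested on 20 knock-in and 1 wild-type UMI. Col11a1, at 12.1 CPM in knock-in and 24.2 CPM in wild-type members, and Col5a3, at 32.3 and 56.3 CPM, were lower. Other collagens had 1 higher and 4 lower of 20, with the basement membrane gene Col4a1 at 617 CPM in knock-in and 974 CPM in wild-type members, a ratio of -0.66 that was -0.58, inside the limit, in cells of 8000 to 20000 UMIs. Collagen processing genes had 0 higher and 4 lower of 24, among them Lox and the prolyl hydroxylases P3h2 and P4ha3.

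Small leucine-rich proteoglycans had 3 higher and 1 lower of 14, near the shares over all genes, and a median of 0.37. Prelp, which anchors collagen to basement membranes, gave 314 CPM in knock-in and 152 CPM in wild-type members, a ratio of 1.04 (0.99 to 1.10). Ecm2 gave 142 and 82.5 CPM in knock-in and wild-type members, and Chad, the last of the higher genes, rested on 34 knock-in UMIs, all in 5 cells or fewer, and 1 wild-type UMI. Decorin (Dcn), a gene of the fibroblast rule, stood at 9547 and 6440 CPM, a ratio of 0.57 just inside the 1.5-fold limit. Asporin (Aspn) was the lower one, at 216 CPM in knock-in and 343 CPM in wild-type members, and its ratio of -0.67 was -0.49, inside the limit, in cells of 8000 to 20000 UMIs. Matricellular genes had 1 higher and 6 lower of 19: Smoc1 was higher, and the thrombospondin gene Thbs1, at 11.3 CPM in knock-in and 32.1 CPM in wild-type members, and Ccn3, at 246 and 460 CPM, were among the lower. In cells of 8000 to 20000 UMIs Thbs1 stood at -0.92, and Ccn3 at -0.52 lay inside the limit. Ccn5 itself, a gene of the rule, had a ratio of -0.09 over all members, 0.53 in female and -0.36 in male members. In cells of 8000 to 20000 UMIs the Ccn5 ratio was 0.19. Its direction thus differed between splits by sex and by depth, and these differences were not tested. Matrix metalloproteinases and their inhibitors had 2 higher and 3 lower of 21, near the shares over all genes. The inhibitor Timp3 gave 1291 CPM in knock-in and 638 CPM in wild-type members, a ratio of 1.02, and the membrane collagenase Mmp14 85.6 and 175 CPM, a ratio of -1.04. Proteoglycan and hyaluronan genes had 5 higher and 3 lower of 18. Gpc3 was among the lower, at 119 CPM in knock-in and 216 CPM in wild-type members.

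For Mgp, the targeted gene, counts per gene do not separate mutated from normal transcripts and so do not check the genotype labels. Mgp was among the most abundant transcripts of the group, at 13392 CPM in knock-in and 11136 CPM in wild-type members, a ratio of 0.27 that was 0.35 in female and -0.06 in male members. BMP target genes showed no difference of 1.5-fold in either direction among 11 measured, with a median of 0.06. Id1 stood at 82.0 CPM in knock-in and 103 CPM in wild-type members, Id3 at 1426 and 1227 CPM and Smad7 at 96.1 and 102 CPM. Of 16 BMP ligands and receptors, 1 was higher and 2 lower, against 13.0% and 11.6% over all genes. The ligand genes Gdf6, at 4.55 CPM in knock-in and 27.4 CPM in wild-type members, and Bmp3, at 30.4 and 62.6 CPM, were the lower ones, Gdf10, a gene of the rule, was the higher one, and Bmp4 stood at 271 and 197 CPM. The Gdf6 ratio of -2.59 was -1.11 in female and -3.40 in male members, and the Gdf10 ratio of 0.81 was 0.46 in cells of 8000 to 20000 UMIs. Of 15 BMP antagonists, Mgp among them, 5 were higher and 2 lower. Follistatin (Fst), which also binds activin, was among the lower, at 112 CPM in knock-in and 205 CPM in wild-type members. Among 12 TGF-beta target genes Postn was the single lower gene and 0 were higher. Among 11 genes of mineralization control 1 was higher and 2 lower, and Alpl, the alkaline phosphatase that releases phosphate for mineral, gave 9.43 CPM in knock-in and 17.5 CPM in wild-type members.

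Secreted Wnt modulators split, with 4 higher and 4 lower of 12. Over all genes 13.0% were at least 1.5-fold higher and 11.6% lower, which applies to each list of this paragraph. Sfrp2 gave 2038 CPM in knock-in and 1292 CPM in wild-type members, while Frzb gave 27.8 and 77.4 CPM, a ratio of -1.48 that was -1.10 in female and -1.52 in male members. Sfrp1 gave 57.1 CPM in knock-in and 104 CPM in wild-type members, with a ratio of 0.36 in female and -1.16 in male members. VEGF, PDGF and FGF genes had 4 higher and 3 lower of 23, near the shares over all genes. Among them Flt1, a receptor that traps VEGF, gave 65.4 CPM in knock-in and 129 CPM in wild-type members, with a ratio of -0.98 that was -0.54 in cells of 8000 to 20000 UMIs, and the PDGF receptor genes Pdgfra and Pdgfrb gave 238 and 220 CPM in knock-in against 141 and 143 CPM in wild-type members. In the IGF axis, 1 of 16 was higher and 2 lower: Igfbp5 gave 633 and 402 CPM in knock-in and wild-type members, and Stc1, an inhibitor of the IGF-releasing protease PAPP-A, 22.0 and 58.3 CPM. Retinoid genes had 3 higher and 2 lower of 16, with the retinoic acid hydroxylase gene Cyp26b1 at 35.9 CPM in knock-in and 19.7 CPM in wild-type members and the retinal reductase gene Dhrs3 at 20.2 and 34.7 CPM.

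Chemokine and complement genes leaned higher in knock-in members. Of 15 chemokine and cytokine genes 8 were at least 1.5-fold higher and 0 lower, against 13.0% higher over all genes, with a list median of 0.95. Cxcl12, the ligand of Cxcr4, gave 237 CPM in knock-in and 85.3 CPM in wild-type members, a ratio of 1.47 (1.41 to 1.54) that was 0.92 in cells of 8000 to 20000 UMIs. Cxcl1, a neutrophil attractant, gave 306 and 139 CPM in knock-in and wild-type members, and Ccl19, whose symbol occurs more than once in the files, 402 and 208 CPM. Cxcl5 had the largest ratio, but the 5 cells with most of its UMIs held 81.0% of the 63 in the knock-in library and all 5 in the wild-type library. Of 13 complement genes, 5 were higher and 2 lower, with a median of 0.36. C3, the central component, gave 82.0 CPM in knock-in and 37.1 CPM in wild-type members, where 5 cells held 12% and 32.5% of its UMIs. C4b gave 64.0 and 26.6 CPM and clusterin (Clu) 47.8 and 18.4 CPM in knock-in and wild-type members. Genes induced by tissue dissociation had 1 higher, Ier3, and 0 lower of 15. Fos stood at 5410 CPM in knock-in and 5062 CPM in wild-type members. Interferon-stimulated genes had 1 higher and 0 lower of 15 over all members. In female members 0 were higher and 2 lower, and in male members 7 higher and 0 lower, a difference that was not tested.

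Over all members, most transcription factor genes that mark position and lineage lay within 1.5-fold, as did most of all genes. Anterior and thoracic Hox genes had 0 of 14 past 1.5-fold in either direction, and posterior Hox genes 0 higher and 1 lower of 8. The separate counts by split placed 2 of the 8 posterior genes lower over all members. By these counts 4 were lower in cells of 8000 to 20000 UMIs, 4 in male and 1 in female members, with 0 higher in each. Of the 14 anterior and thoracic genes, 1 was lower in cells of 8000 to 20000 UMIs. These differences between splits were not tested. Of 30 mesenchymal transcription factor genes 6 were higher and 2 lower, against 13.0% higher and 11.6% lower over all genes. Tcf21, a factor of coronary and epicardial fibroblasts, gave 15.6 CPM in knock-in and 36.2 CPM in wild-type members, a ratio of -1.22, and was lower in Entpd2 and Tmem100 fibroblasts as well, at -1.67 and -2.15. Sox9, Runx1 and Runx2 were among the higher genes, with Runx1 at 55.3 CPM in knock-in and 33.9 CPM in wild-type members. Of 13 mitochondrially encoded genes 3 were higher and 0 lower, led by mt-Atp8 at 184 CPM in knock-in and 46.0 CPM in wild-type members. The median mitochondrial share of a member was 2.13% in the knock-in and 1.84% in the wild-type library.

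**Figure D4:**
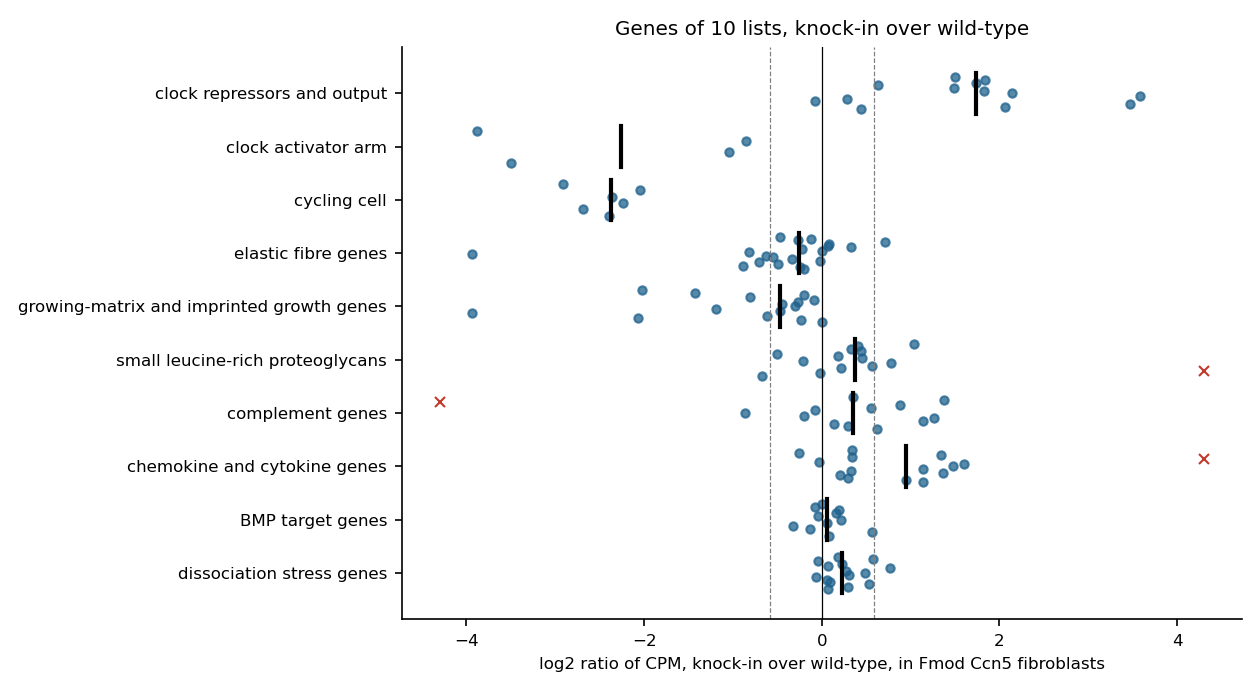
The log2 ratio of knock-in over wild-type CPM in Fmod Ccn5 fibroblasts for each gene of 10 lists, with a bar at the list median and dashed lines at 1.5-fold; red crosses at the edge stand for genes beyond the axis. The clock lists lie on opposite sides of 0, with medians of 1.74 and -2.27, and the BMP target genes gather around 0.06.

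Cycling cells were fewer among knock-in members. All 6 cycling genes were lower in the knock-in library, with a list median of -2.37, and Top2a gave 13.9 CPM in knock-in and 57.3 CPM in wild-type members. The gap was unequal by sex, with a list median of -5.42 in female and -1.55 in male members and a Top2a ratio of -5.77 in female and -0.99 in male members, a difference that was not tested. With every cell thinned to 5000 UMIs, 11 of 1319 knock-in members (0.834%, 0.417 to 1.49%) and 59 of 1446 wild-type members (4.08%, 3.12 to 5.23%) carried at least 2 UMIs of the cycling genes. The same shares were 0.881% and 2.84% in Entpd2 and 1.30% and 5.20% in Tmem100 fibroblasts of the knock-in and wild-type libraries. When members with 3 or more raw UMIs of these genes, 19 knock-in and 86 wild-type cells, were left out, the list median was 0.14. That shift was favoured by the removal, since the same genes chose the cells, by a raw limit not adjusted for depth. The mitotic genes Hmmr, Ube2c, Cenpf, Diaph3, Prc1, Birc5 and Tpx2 were among the 12 lowest genes. Prc1, Birc5, Cenpf and Ube2c belong to the cycling list, and without those members they stood at -0.02, 0.17, 0.20 and -1.0. Tpx2, Diaph3 and Hmmr, which also binds hyaluronan, are not in the list and stood at -0.45, -1.13 and -3.31. Because the listed genes chose the cells, these values cannot show whether the mitotic genes behaved alike. In the knock-in library 5 cells held 81.6% of the Top2a UMIs and 62.5% of the Birc5 UMIs.

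Markers of other cell types were low but not equal. The rule kept the sum of Acta2, Tagln and Myh11 below that of Dcn, Lum and Pdgfra, so low muscle values were partly its result. In all, 22 knock-in and 14 wild-type members passed a limit of 5 UMIs and 0.05% of their UMIs for the defining markers of another type. Smooth muscle markers Myh11, Cnn1 and Des summed to 39.0 CPM in knock-in and 6.17 CPM in wild-type members, and the full smooth muscle list to 642 and 417 CPM, of which 6 of 10 genes were higher and 0 lower. Without members carrying markers of another cell type 3 of 10 were higher, since Acta2 at 0.36, Myocd at 0.23 and Smtn at 0.57 then lay inside the limit. Myh11 gave 24.0 and 2.61 CPM in knock-in and wild-type members, and 12.2 and 2.61 CPM without the 11 knock-in members and 1 wild-type member past the muscle limit. The part of the larger number of smooth muscle cells in the knock-in library, 3016 against 420, was not tested. The pericyte list had 1 higher and 1 lower of 5, with Rgs5 at 45.4 CPM in knock-in and 106 CPM in wild-type members, a ratio of -1.23 against 2.10 in Entpd2 fibroblasts. Mesothelial genes were lower, 5 of 5, with Msln and Wt1 at 0 in knock-in members and 2 wild-type members past the limit. In wild-type members 5 cells held 98.8% of the UMIs of these genes. Without members carrying markers of another cell type, 2 mesothelial genes were higher and 2 lower of 5. Macrophage markers summed to 98.3 and 91.0 CPM in knock-in and wild-type members, with 5 cells holding 64.0% and 53.3% of the UMIs. Chondrocyte genes were higher in 8 of 10 at 142 and 76.4 CPM summed, but 5 cells held 70.0% of the Cytl1 UMIs in knock-in and 62.1% in wild-type members. Endothelial markers had 4 higher and 1 lower of 7, the tendon list 1 higher and 0 lower of 6, Schwann cell genes 1 higher and 0 lower of 3, adipocyte genes 1 higher and 1 lower of 3, and progenitor-like fibroblast genes 0 higher and 3 lower of 9.

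Members differed among themselves within each library. After thinning, 249 of 3430 genes had a variance at least 2 times the mean in both libraries, where the median gene stood at 1.12 in the knock-in and 1.10 in the wild-type library. Among genes with a mean of at least 0.2 UMIs per cell in both libraries, Mgp had the highest ratio of variance to mean. It was 61.3 in knock-in and 44.0 in wild-type members, followed by Malat1, Col1a2, Col1a1, Eln and Sparc. The ratio tends to rise with abundance and is no ranking of relative spread. Mgp had a mean of 68.8 UMIs per thinned cell in knock-in and 58.5 in wild-type members. Mmp3, at a mean of 1.36 and 1.25 UMIs in the same order, had a ratio of 14.0 in both. Col1a1 and Col1a2, the chains of type I collagen, moved together from cell to cell (Pearson r 0.92 in both libraries, 1319 knock-in and 1446 wild-type cells), as a description of cells that share a library and a fixed depth. Eln had r of 0.46 in knock-in and 0.54 in wild-type cells with Ccn5, and 0.17 and 0.08 with Col1a1. Col1a1 had r of 0.47 and 0.46 with Fmod. Ccn5 and Fmod are rule genes that helped to choose these cells, so their values describe the chosen cells only. With Mfap4, which is outside the rule, Eln had r of 0.51 in knock-in and 0.37 in wild-type cells.

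Subsets of members were read by single genes, with Erbb4 and Angptl7 and all partner genes chosen after their values were seen. Cells with at least 2 thinned UMIs of Erbb4 were 64 of 1319 knock-in members (4.85%, 3.76 to 6.15%) and 95 of 1446 wild-type members (6.57%, 5.35 to 7.97%), against 1 of 681 and 0 of 776 Entpd2 fibroblasts and 23.0% and 36.5% of smooth muscle cells. The exact binomial upper bound of the 0 in wild-type Entpd2 fibroblasts was 0.474%. These Erbb4 cells also carried more Myocd, the smooth muscle coactivator, at a mean of 0.28 UMIs per cell against 0.017 in other knock-in members and 0.16 against 0.011 in wild-type members. They carried more of the protocadherin Pcdh7, at 7.03 against 2.24 UMIs in knock-in and 8.20 against 2.66 in wild-type members. Gdf10, Ly6a and Smoc2 were lower in them. Gdf10 belongs to the Entpd2 set that members had to exceed, so its contrast describes the chosen cells only. Smoc2 gave 0.83 against 2.85 UMIs in knock-in and 0.76 against 3.22 in wild-type members. The part of doublets in this subset was not tested.

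Cells with Angptl7, a secreted angiopoietin relative, made up 12.7% of knock-in (10.9 to 14.6%) and 7.40% of wild-type members (6.10 to 8.87%), against 0.587% and 1.80% of Entpd2 fibroblasts. They carried more Ccn5, at 12.7 against 5.71 UMIs per cell in knock-in and 11.3 against 6.28 in wild-type members. Ccn5 is a rule gene that helped to choose the members, so this contrast describes the chosen cells only. The Angptl7 cells carried less Mgp, at 45.5 against 72.2 UMIs in knock-in and 34.4 against 60.4 in wild-type members. The matrix protease stromelysin 1 (Mmp3) marked 15.9% of knock-in and 15.8% of wild-type members, against 19.5% and 11.6% of Entpd2 fibroblasts. Mmp3 cells of the group had Ccn3 at 2.34 against 0.92 UMIs in knock-in and 3.68 against 1.98 in wild-type members. Tnc, C3 and Il6 were likewise higher in Mmp3 cells of both libraries. Igfbp5 marked 39.3% of knock-in (36.7 to 42.0%) and 27.4% of wild-type members (25.1 to 29.8%), against 54.0% and 30.2% of Entpd2 and 61.6% and 55.4% of Tmem100 fibroblasts.

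**Figure D5:**
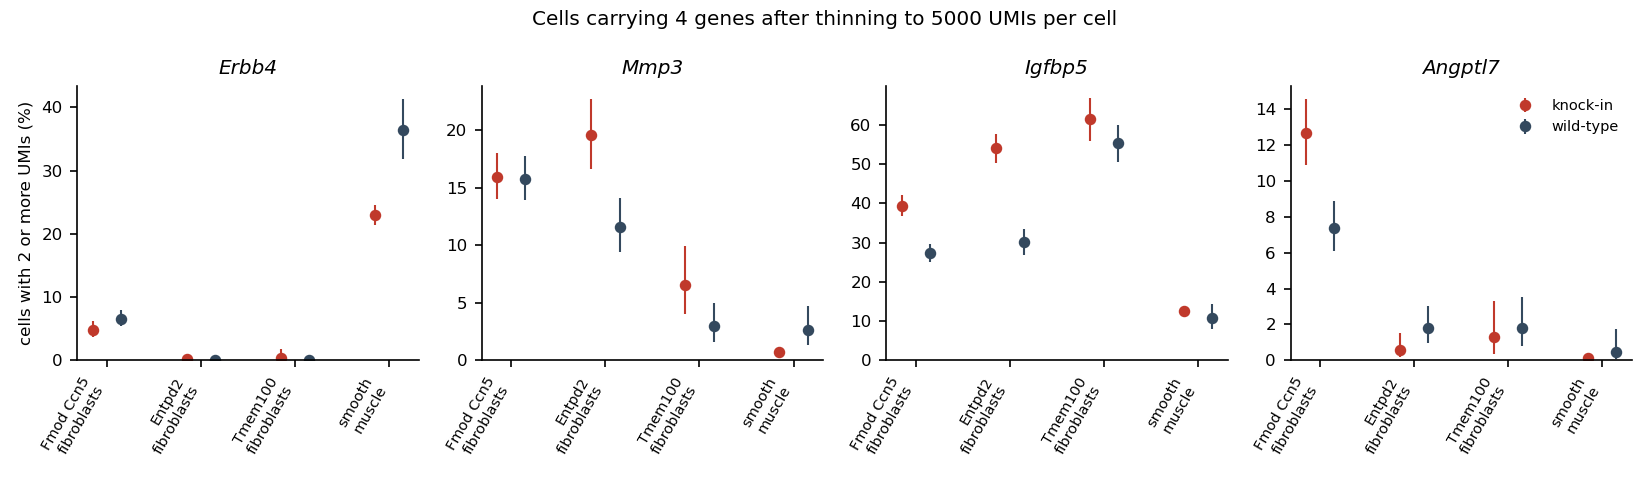
Percent of cells with at least 2 UMIs of 4 genes after thinning to 5000 UMIs per cell (vertical axis) in knock-in (red) and wild-type (dark blue) cells of 4 groups, with 95% exact binomial intervals. Angptl7 is highest in Fmod Ccn5 fibroblasts, at 12.7% and 7.40%, while Erbb4 cells are also found among smooth muscle cells.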

How the data were processed

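The deposited values are UMI counts per gene and barcode for all barcodes, covering 32285 genes. Per the submitters' processing notes, Cell Ranger 7.1.0 was used, the genome build being one not given in the sources used here. Totals were 85831737 UMIs in the knock-in and 79626104 in the wild-type library. Cells had at least 1000 UMIs, 500 genes and at most 10% mitochondrial UMIs. Scrublet (scanpy 1.11.5) marked 33 knock-in and 42 wild-type members among its highest doublet scores, and these were kept in the main values. Counts were summed over members per library and given as CPM. Log2 ratios carry exact conditional binomial intervals and shares Clopper-Pearson intervals, and cells were thinned to 5000 UMIs for shares and variation. List ratios had 0.5 added to each sum. A fibroblast counted as cycling with 3 raw or 2 thinned UMIs. Members, the 41 lists and the rules were chosen with earlier results of these data known. Named genes were the rule genes, the 20 highest and 10 lowest against the other fibroblasts, the 12 highest and 12 lowest between genotypes ranked by the interval bound nearest 0, 2 to 4 genes per list and the 10 most variable genes; other genes were chosen after their values were seen. A few genes that this rule names are not reported here. Simulated counts with known changes were used to check the ratios and intervals. Python 3.11.15, numpy 2.4.6, scipy 1.17.1, pandas 2.3.3 and matplotlib 3.10.9 were used.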

Additional observations from a re-analysis of the deposited data

Results flagged for a closer look

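Nav3, a microtubule-associated protein of the navigator family, had opposite directions in 2 fibroblast groups. In Fmod Ccn5 fibroblasts it gave 24.7 CPM in knock-in and 11.4 CPM in wild-type members, a log2 ratio of 1.12 (0.92 to 1.32). In Tmem100 fibroblasts it gave 122 CPM in knock-in and 285 CPM in wild-type cells, a ratio of -1.22 (-1.34 to -1.11). In the Fmod Ccn5 group 5 cells held 14.5% of its UMIs in the knock-in and 29.2% in the wild-type library. The difference between the groups was not tested.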

How the results depend on the processing

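No paired analysis was possible because each genotype has 1 library, which also leaves no replicate to omit. The share of fibroblasts, 2.17 points higher in the knock-in library, was 12.1 points higher in cells of 8000 to 20000 UMIs and -14.8 points with all cells as denominator. The 2-fold counts of 98 higher and 105 lower genes had 61 lower in cells of 8000 to 20000 UMIs. They were 1142 and 971 over 16584 genes with at least 10 UMIs and no CPM minimum, 302 and 357 at 1.5-fold, and 125 and 81 when scaled to the median gene. Against the other fibroblasts, 1.5-fold gave 209 higher and 157 lower genes. Thinning to 3000 UMIs left 109 variable genes of 249. The ratio nearest 0 of Car3 over the other fibroblasts turned to -3.97 in cells of 8000 to 20000 UMIs, -1.89 in female cells and -2.72 without members carrying markers of another cell type. The endothelial list median was -0.078 in male cells. Without cycling members, Cenpf stood at 0.20, Birc5 at 0.17 and the cycling list median at 0.14, since those cells were chosen by UMIs of these genes. This setting, like the one on markers of another cell type, was chosen after seeing the data. For the other reversals the cause was not tested. Of the remaining values for single genes and lists under all settings, 1012 kept direction and size class and 179 moved. The smaller depth of the knock-in library limits what can be seen of rare transcripts in single cells.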
